A study of Mus musculus with 9 samples.

Results

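The 47 genes described here encode proteins of the cell division cycle and of DNA replication. They were chosen by name from a list of proliferation markers, cyclins, mitotic kinases, spindle and centromere proteins, replication factors, enzymes of nucleotide synthesis and 2 transcription factors, and all 47 were found among the 24411 genes of the count table. Their levels were compared in 9 livers of mice 3 months old, with 3 livers in each of 3 groups. The control mice, called cont., were Atg7flox/flox without Cre recombinase. The Atg7-KO mice were Atg7flox/flox;Alb-Cre, in which Cre is driven by the albumin promoter and deletes the autophagy gene Atg7 in hepatocytes. The study describes this knockout as hepatocyte-specific, and Atg7 in other liver cells was not measured here. The third group, called S351A here, was Atg7flox/flox;Alb-Cre with p62S351A on both copies, so that p62 carries alanine in place of a serine whose phosphorylation strengthens binding to KEAP1. All groups therefore shared the floxed Atg7 alleles, and no S351A livers with intact Atg7 were compared here. The methods of the study give the C57BL/6 background for the lines, and each library came from a mouse of its own. The genotype label of S351A replicates 2 and 3 names other, neighbouring positions of p62, and these samples were placed by their titles. The comparison of Atg7-KO with cont. asks how hepatocyte Atg7 loss goes along with these transcripts, and that of S351A with Atg7-KO asks whether the p62 allele alters them.

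Cells enter the division cycle when D-type cyclins and their kinases release E2F transcription factors, which switch on genes of DNA replication such as those of the MCM helicase. Genes of mitosis are switched on later. The DREAM complex, which holds the MuvB proteins, keeps them off in resting cells through a short promoter element called CHR, and MuvB with B-MYB and then FOXM1 turns them on in dividing cells. Most hepatocytes of an adult liver rest outside the cycle, and they can re-enter it after injury or loss of tissue.

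The depth of the libraries differed between groups. Library totals were 1875314 to 15426566 counts in cont., 1945469 to 3675041 in Atg7-KO and 713835 to 792366 in S351A, so every S351A library was shallower than every other library, and depth and genotype cannot be told apart in comparisons with this group. Levels are given as CPM, which are counts relative to the library size after TMM scaling (trimmed mean of M values), and 3 counts in a library, taken as the floor of detection, correspond to 0.269 to 3.73 CPM. Floors and counting intervals cover counting error only. The targeted gene Atg7 was at 42.4 to 57.7 CPM in cont. livers, 28.0 to 30.2 CPM in Atg7-KO livers and 21.8 to 24.8 CPM in S351A, without overlap of either group with cont. The hepatocyte marker Alb was at 18820.5 CPM or more in every library. Genes were tested with edgeR's quasi-likelihood F test, and those called had a p-value under 0.05 after Benjamini-Hochberg adjustment over all 11199 genes tested and a fold change above 1.5.

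The starts of these genes are shown first, because the groups of genes described below differ in the motifs found there. RefSeq promoters (GRCm38.p6, the same build as mm10, 250 bases before to 50 after the start) were matched by symbol for 38 of the 47 genes, with 42 promoters in all. The motifs searched on both strands were TTTGAA, the core of the CHR element, CCAAT, which is bound by NF-Y, and the E2F motif in the forms TTTCCCGC, TTTCGCGC, TTTGCCGC and TTTGGCGC. The TTTGAA motif was found in 50% of the 42 promoters and in 17.9% of all 32851 promoters of the same length, and CCAAT was found in 78.6% and 37.4%, respectively. Among the 20 promoters of mitotic genes, 80% held TTTGAA and 0% an E2F motif, whereas among the 15 promoters of replication and nucleotide synthesis genes 6.67% held TTTGAA and 46.7% an E2F motif, which 2.26% of all promoters held. A match of letters is a description of the window and not a measured binding site. The 150 bases before the start are given 5′ to 3′ on the strand of the gene for Top2a (chr11:99024190-99024339, minus strand), Cdc20 (chr4:118437344-118437493, minus strand), Cdk1 (chr10:69352913-69353062, minus strand), Mcm6 (chr1:128359706-128359855, minus strand), Pcna (chr2:132253181-132253330, minus strand) and Tk1 (chr11:117826015-117826164, minus strand). The first 4 are genes called higher in Atg7-KO, Pcna was not called and Tk1 was called lower. Capitals mark the motifs in either orientation. In Mcm6, 2 E2F motifs on opposite strands overlap, and the Tk1 stretch has no match.
Top2a: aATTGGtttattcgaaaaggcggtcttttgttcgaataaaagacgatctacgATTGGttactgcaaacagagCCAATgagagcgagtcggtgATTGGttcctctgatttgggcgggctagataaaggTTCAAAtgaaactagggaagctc
Cdc20: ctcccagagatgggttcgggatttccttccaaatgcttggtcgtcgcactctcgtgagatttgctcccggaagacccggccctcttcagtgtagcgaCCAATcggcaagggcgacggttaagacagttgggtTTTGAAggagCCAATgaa
Cdk1: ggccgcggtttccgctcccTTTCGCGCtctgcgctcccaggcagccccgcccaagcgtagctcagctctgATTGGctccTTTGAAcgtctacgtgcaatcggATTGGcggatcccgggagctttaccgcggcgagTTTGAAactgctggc
Mcm6: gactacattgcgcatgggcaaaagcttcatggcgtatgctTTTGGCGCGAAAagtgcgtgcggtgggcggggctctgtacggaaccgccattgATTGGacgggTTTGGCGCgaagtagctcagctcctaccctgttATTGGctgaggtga
Pcna: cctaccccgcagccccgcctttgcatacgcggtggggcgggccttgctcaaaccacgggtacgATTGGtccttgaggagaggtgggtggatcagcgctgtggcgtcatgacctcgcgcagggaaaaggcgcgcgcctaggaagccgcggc
Tk1: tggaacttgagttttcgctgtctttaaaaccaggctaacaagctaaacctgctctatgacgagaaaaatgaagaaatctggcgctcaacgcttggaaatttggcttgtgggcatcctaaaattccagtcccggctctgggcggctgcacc

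Most of the 47 genes were higher in Atg7-KO than in cont. livers. In 42 of the 47 genes every Atg7-KO library lay above every cont. library, an arrangement seen in 21.4% of all genes with 1 count or more, and for 1 gene, Tk1, every Atg7-KO library lay below. After the filter on low counts 41 genes were tested, of which 35 rose, 1 fell and 5 did not pass the test. Over all genes tested, 19.9% were called higher and 18.1% lower. The filter bears on this count, since 30 of the 41 genes passed it in no cont. library and were kept by the groups in which they were high. Without the filter all 47 genes were tested, and 40 were called higher and 1 lower, beside 14.2% and 13% of all genes. The median log2 fold change over the 41 genes was 2.48, and over all genes tested it was -0.03. The genes not called were Mcm4, Mcm7, Pcna, Rrm1 and Tyms, all from the replication and nucleotide synthesis lists.

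A summed level shows the size of the difference in each liver. The 47 genes together stood at 199, 291 and 190.1 CPM in the cont. livers, at 863, 701 and 820 CPM in the Atg7-KO livers and at 789, 795 and 678 CPM in the S351A livers. Both groups with Cre lay far above cont., and they overlapped each other. Ccnd1 makes up a large share of these sums, and without it they were 172 to 218 CPM in cont. livers, 478 to 619 CPM in Atg7-KO livers and 440 to 494 CPM in S351A. When all libraries were thinned to the size of the smallest one, the 47 genes together gave 102 to 156 counts in cont., 556 to 732 in Atg7-KO and 549 to 624 in S351A. Without Ccnd1 the thinned counts were 91 to 119, 407 to 508 and 346 to 371. In this single random draw without TMM scaling every S351A liver lay below every Atg7-KO liver, whereas the scaled sums without Ccnd1 overlapped. Of the 20 genes tested after thinning, 14 were called higher in Atg7-KO and 1 lower, beside 15.7% and 14.6% of all genes tested. In these bulk samples, more dividing cells and more RNA of these genes per cell cannot be told apart.

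Mki67 encodes the Ki-67 protein of dividing cells, and Top2a the topoisomerase that untangles chromosomes. Mki67 was at 3.81, 4.23 and 3.49 CPM in cont., at 56.1, 39.1 and 45.8 CPM in Atg7-KO and at 35.6, 36.0 and 30.9 CPM in S351A. Top2a was at 3.81, 1.76 and 1.97 CPM in cont., at 48.0, 34.5 and 50.3 CPM in Atg7-KO and at 43.7, 43.5 and 30.9 CPM in S351A. For both genes the cont. livers lay below all others, with means of 3.84 ± 0.367 CPM (SD, n = 3) for Mki67 and 2.52 ± 1.13 CPM (SD, n = 3) for Top2a. On the log2 scale Mki67 rose in Atg7-KO by 3.64 (SE 0.24, adjusted p = 1.3e-06), and Top2a by 4.30 (SE 0.31, adjusted p = 2.21e-06). Against cont., S351A livers were higher by 3.17 for Mki67 (SE 0.26, adjusted p = 1.01e-05) and by 4.13 for Top2a (SE 0.33, adjusted p = 9.52e-06).

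**Figure D1:**
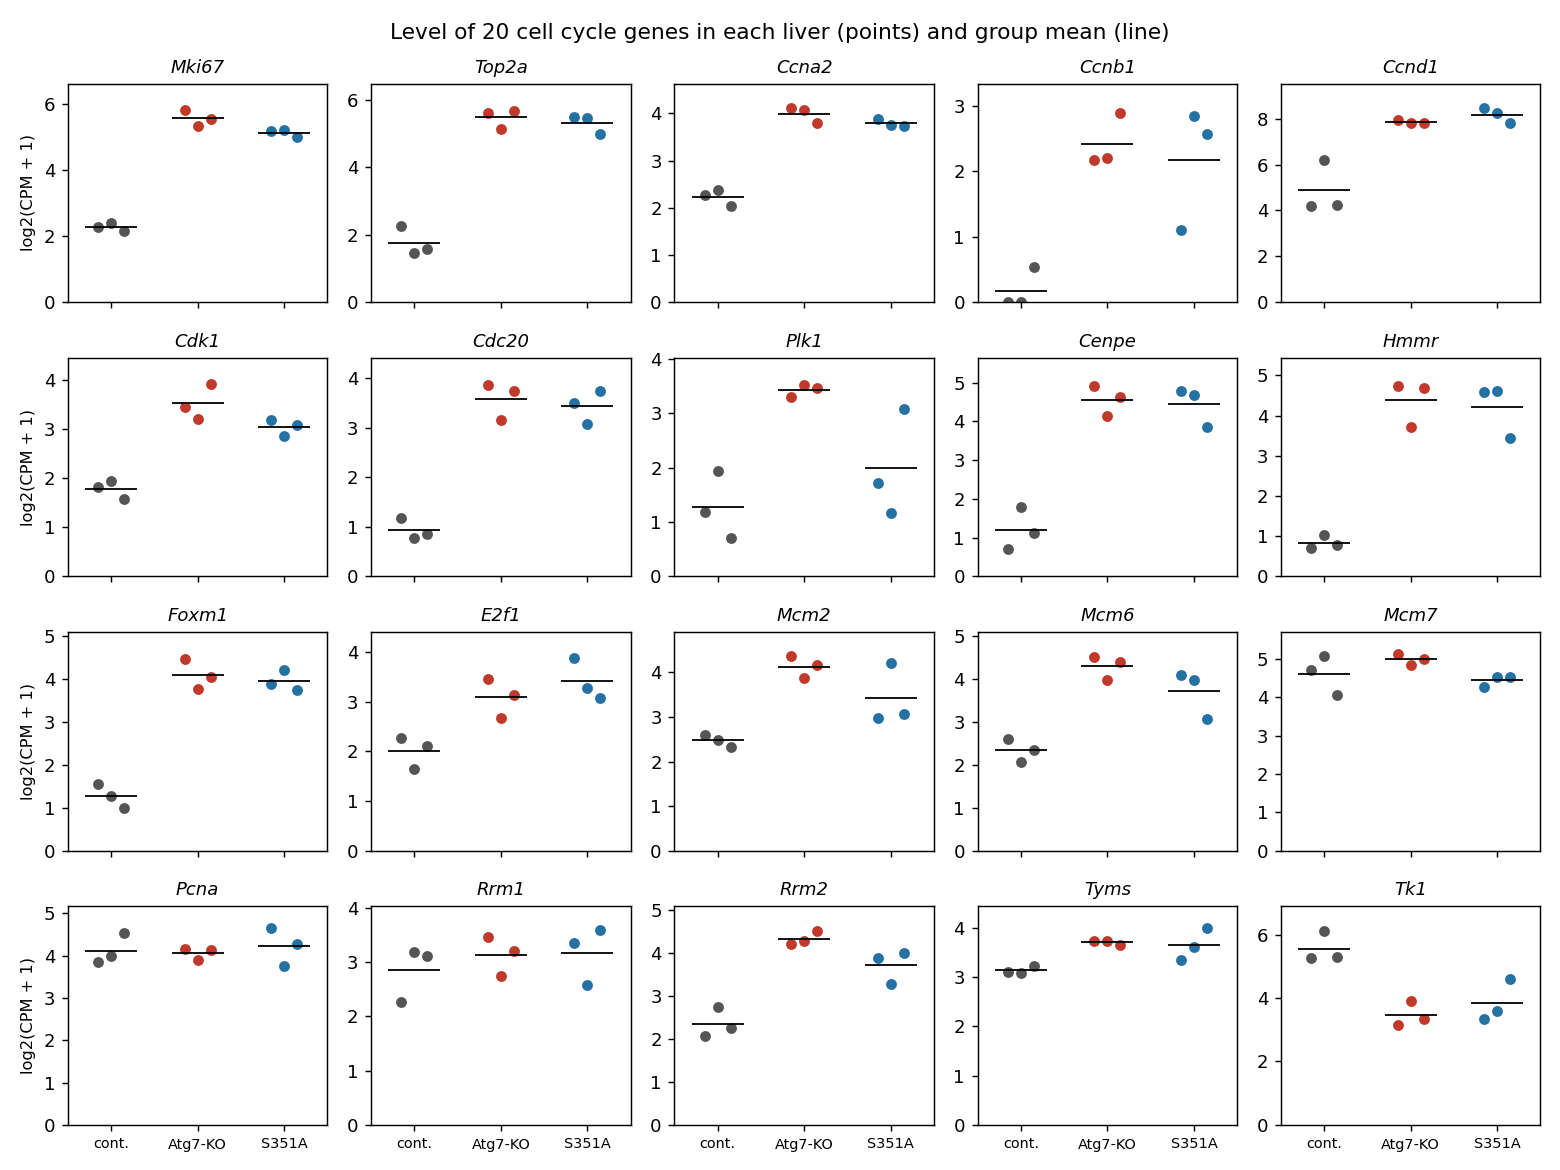
Level of 20 of the genes in each liver, as log2(CPM + 1) on the vertical axis, with points for the 3 livers of each group and a line for the group mean. The points of Atg7-KO and cont. do not overlap for genes such as Mki67, Top2a, Ccna2 and Mcm6, overlap for Mcm7, Pcna and Rrm1, and lie below cont. for Tk1.

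Cyclins and their kinase CDK1 drive the steps of the cycle. All 5 of these genes that were tested rose in Atg7-KO, and the sixth, Ccne1, was too low for the filter. Of the 5, Ccnd1 alone passed it in a cont. library. Without the filter all 6 were called higher, beside 14.2% of all genes. Cyclin D1, the cyclin of cycle entry, was the most abundant of the 47 genes per kilobase of exon in Atg7-KO, at 49.0 CPM per kilobase against 10.4 for Stmn1, the next. Ccnd1 was at 17.2, 72.9 and 17.7 CPM in cont., at 244, 223 and 225 CPM in Atg7-KO and at 349, 301 and 226 CPM in S351A. The second cont. liver stood apart from the other 2, and it still lay below the lowest liver with Cre. By sex read from the counts it was the only female cont. liver, so sex and this liver cannot be told apart within cont. The log2 fold change of Ccnd1 was 2.68 in Atg7-KO (SE 0.47, adjusted p = 0.000874) and 3.02 in S351A (SE 0.48, adjusted p = 0.000805), each against cont., and 3.71 and 4.04 without that second cont. liver. Cyclin A2, which acts in DNA synthesis and G2, was steady within groups, with 3.81, 4.23 and 3.14 CPM in cont. livers, 16.2, 15.8 and 12.8 CPM in Atg7-KO livers and 13.8, 12.4 and 12.3 CPM in S351A. Ccna2 thus rose by 2.06 in Atg7-KO (SE 0.28, adjusted p = 0.000151) and by 1.83 in S351A (SE 0.32, adjusted p = 0.00157), and the second call was lost after thinning (1.86, adjusted p = 0.0514). Its exons overlap those of Exosc9 on the genome, and without a stated strand setting reads of the overlap cannot be assigned with certainty.

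Cdk1, the kinase that starts mitosis, was at 2.54, 2.82 and 1.97 CPM in cont., at 9.98, 8.26 and 14.2 CPM in Atg7-KO and at 8.04, 6.21 and 7.40 CPM in S351A. It rose by 2.19 in Atg7-KO (SE 0.35, adjusted p = 0.000498) and by 1.63 in S351A (SE 0.43, adjusted p = 0.0147). The second call was lost without cont. replicate 3 (1.38) or S351A replicate 1 (1.53). Its partner cyclin B1 was near the floor in cont., with 0, 0 and 5 counts, and had 15, 10 and 14 counts in Atg7-KO and 1, 5 and 4 counts in S351A. The fitted log2 fold change of Ccnb1 was 3.70 in Atg7-KO (SE 0.71, adjusted p = 0.00147) and 3.59 in S351A (SE 0.87, adjusted p = 0.00925), and the latter call was lost without S351A replicate 2. Both values rest on cont. replicate 3, the only cont. library with counts of this gene. Ccnb2, the other B-type cyclin, stood at 2.06 ± 0.421 CPM in cont. livers, 7.32 ± 2.91 CPM in Atg7-KO livers and 6.54 ± 3.87 CPM in S351A (SD, n = 3). Ccne1, which acts at the start of DNA synthesis, had 0, 0 and 9 counts in cont., 16, 9 and 10 in Atg7-KO and 2, 3 and 2 in S351A.

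Of the 22 genes in the 3 lists of mitosis, all 19 tested rose in Atg7-KO, beside 19.9% of all genes tested, and most of them passed the filter in no cont. library. Without the filter 21 of the 22 were called higher, all but Anln, beside 14.2% of all genes. The median log2 fold change over the 19 was 3.05, in a range from 1.14 for Cenpa to 4.67 for Hmmr. Their summed level was 46.4, 44.7 and 36.1 CPM in cont. livers and 258, 195 and 249.8 CPM in Atg7-KO. Among the kinases and checkpoint genes, Plk1, which acts from mitotic entry to cell separation, was at 1.27, 2.82 and 0.627 CPM in cont. and at 8.82, 10.4 and 10.1 CPM in Atg7-KO. In S351A it was at 2.30, 1.24 and 7.40 CPM, on 2, 1 and 6 counts. The first and second of these S351A values fell within the range of cont., and the third lay above it. Plk1 rose in Atg7-KO by 2.87 (SE 0.56, adjusted p = 0.00169), or by 3.63 or 2.10 when cont. replicate 2 or 3 was left out. In S351A against cont. its log2 fold change was 1.46 (SE 0.78, adjusted p = 0.179), which passed only without cont. replicate 2 (2.22) and was 0.68 without cont. replicate 3 and 0.42 without S351A replicate 3.

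Aurkb encodes the kinase of the chromosomal passenger complex and Birc5 the survivin subunit of the same complex. Aurkb had 0, 0 and 3 counts in cont., 16, 15 and 12 in Atg7-KO and 2, 0 and 7 in S351A. On these 3 counts in cont., all in replicate 3, its summed level was 24.1 times higher in Atg7-KO (95% counting interval 7.70 to 121) and 18.8 times higher in S351A (4.69 to 108). The fitted log2 fold changes were 4.42 (SE 0.85, adjusted p = 0.00152) and 4.03 (SE 1.08, adjusted p = 0.0147), and without S351A replicate 3 the second was 2.46 and not called. With a library left out they ranged from 4.14 to 6.29 and from 2.46 to 5.89, respectively. Birc5 was at 8.26, 3.52 and 2.78 CPM in cont., at 12.3, 8.26 and 15.6 CPM in Atg7-KO and at 6.89, 3.73 and 7.40 CPM in S351A. Atg7-KO touched the range of cont. for this gene, and S351A lay within it. Birc5 rose in Atg7-KO by 1.51 (SE 0.43, adjusted p = 0.0142), a call that was lost without cont. replicate 3 (1.12), Atg7-KO replicate 1 (1.47) or Atg7-KO replicate 3 (1.26), and in S351A the log2 fold change was 0.53 (SE 0.55, adjusted p = 0.508).

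The other kinase and checkpoint genes were higher in each Atg7-KO liver than in any cont. liver. Cdc20, the activator of the ubiquitin ligase that starts anaphase, was at 0.927 ± 0.302 CPM in cont. livers and 11.2 ± 2.94 CPM in Atg7-KO (SD, n = 3). Ube2c, an enzyme that works with this ligase, was at 6.99, 1.06 and 1.16 CPM in cont. and at 19.7, 14.7 and 19.2 CPM in Atg7-KO. The kinase gene Aurka stood at 2.72 ± 0.548 and 6.70 ± 1.05 CPM, and the checkpoint gene Bub1b at 0.768 ± 0.713 and 8.03 ± 1.78 CPM (SD, n = 3). Bub1, a checkpoint kinase that the filter removed, had 1 count in all cont. libraries together and 32 counts in Atg7-KO, a ratio of 53.7 with a counting interval of 8.97 to 2186. Exons of Cdc20 overlap those of Elovl1, and exons of Ube2c those of Tnnc2.

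At the centromere, Cenpe, a motor that brings chromosomes to the spindle, was at 0.636, 2.46 and 1.16 CPM in cont., at 29.2, 16.5 and 23.8 CPM in Atg7-KO and at 26.4, 24.8 and 13.6 CPM in S351A. Cenpf was at 0.738 ± 0.707 CPM in cont. livers, 12.4 ± 1.51 CPM in Atg7-KO livers and 8.86 ± 7.46 CPM in S351A, where 1 of the 3 libraries had a single count. Cenpa, the histone H3 variant of centromeres, differed least in this list, with 6.63 ± 3.14 CPM in cont. livers, 16.0 ± 2.89 CPM in Atg7-KO livers and 10.9 ± 2.77 CPM in S351A (SD, n = 3).

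Among the 11 genes of the spindle and of cell separation, the 9 tested rose in Atg7-KO, beside 19.9% of all genes tested. Most of the 9 passed the filter in no cont. library. Without the filter 10 of the 11 were called higher, beside 14.2% of all genes. Hmmr, a spindle protein, had the highest log2 fold change of the 41 genes tested, with 0.636, 1.06 and 0.717 CPM in cont. livers, 25.8, 12.2 and 24.7 CPM in Atg7-KO livers and 23.0, 23.6 and 9.87 CPM in S351A. Stmn1, which destabilises microtubules, was at 6.36, 6.34 and 4.84 CPM in cont., at 17.6, 20.1 and 22.0 CPM in Atg7-KO and at 14.9, 14.9 and 13.6 CPM in S351A. The 3 groups did not overlap for Stmn1, with cont. lowest and Atg7-KO highest. It rose by 1.81 in Atg7-KO (SE 0.25, adjusted p = 0.000165) and by 1.36 in S351A (SE 0.29, adjusted p = 0.00481). The kinesins Kif11, Kif20a and Kif23 had means of 0.713, 4.60 and 2.00 CPM in cont. and of 5.98, 13.0 and 15.4 CPM in Atg7-KO. Tpx2 and Nusap1, which organise spindle microtubules, had means of 0.843 and 0.531 CPM in cont. and of 7.40 and 5.84 CPM in Atg7-KO. For Prc1 and Racgap1, proteins of the spindle midzone, the means were 0.710 and 0.506 CPM in cont. livers and 5.98 and 5.62 CPM in Atg7-KO. Anln and Ect2, which act in cytokinesis, were too low for the filter, with means of 1.58 and 1.46 CPM in cont. and of 3.49 and 5.31 CPM in Atg7-KO, and without the filter Ect2 was called and Anln was not. Kif20a, Nusap1 and Prc1 share exonic bases with Cdc23, Oip5 and Rccd1, respectively.

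The genes of DNA replication and nucleotide synthesis were called in both directions. Of 13 tested in Atg7-KO against cont., 7 rose, 1 fell and 5 did not pass, beside 19.9% of all genes called higher and 18.1% lower. Without the filter 9 of the 15 were called higher and 1 lower, beside 14.2% and 13%. The median over these 13 was 1.43 on the log2 scale. Without Tk1, the summed level of these lists was 75.6, 86.3 and 80.1 CPM in cont. livers, 175, 142 and 172 CPM in Atg7-KO livers and 122, 138 and 123 CPM in S351A. The MCM proteins form the ring that opens DNA, and its subunits act together in a single complex. Mcm2 was at 5.09, 4.58 and 4.03 CPM in cont., at 19.5, 13.6 and 16.9 CPM in Atg7-KO and at 6.89, 17.4 and 7.40 CPM in S351A. It rose by 1.92 in Atg7-KO (SE 0.34, adjusted p = 0.000853) and by 1.24 in S351A (SE 0.41, adjusted p = 0.0381), where 1 liver was far above the other two and the log2 fold change without it, S351A replicate 2, was 0.66 and not called. Mcm6 was at 5.09, 3.17 and 4.12 CPM in cont., at 21.8, 14.7 and 20.1 CPM in Atg7-KO and at 16.1, 14.9 and 7.40 CPM in S351A. Mcm6 rose by 2.22 (SE 0.32, adjusted p = 0.000233) and by 1.66 (SE 0.38, adjusted p = 0.00651), respectively.

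Mcm3 also rose in Atg7-KO, from 3.46 ± 1.17 to 10.2 ± 1.35 CPM (SD, n = 3), whereas Mcm4 and Mcm7 were not called, with 3.06 ± 1.01 and 24.6 ± 8.52 CPM in cont. against 5.47 ± 0.702 and 31.1 ± 3.05 CPM in Atg7-KO (SD, n = 3). Mcm7 was the most abundant of the 6 subunits in cont. per kilobase of exon, and it shares exonic bases with 4 counted genes, among them the microRNA genes Mir25 and Mir93 that lie within the gene. Mcm5 was too low for the filter, with 5, 4 and 15 counts in cont., 29, 11 and 10 in Atg7-KO and 3, 7 and 2 in S351A. The subunits of this ring thus differed in their fold changes, from 0.38 for Mcm7 to 2.22 for Mcm6 on the log2 scale, and the difference between subunits was not tested.

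Pcna, the sliding clamp of DNA polymerases, did not differ beyond the spread of the livers. It was at 13.3, 14.8 and 22.0 CPM in cont., at 16.7, 14.0 and 16.5 CPM in Atg7-KO and at 24.1, 12.4 and 18.5 CPM in S351A. Its log2 fold change was -0.14 in Atg7-KO (95% interval -0.72 to 0.44, SE 0.27, adjusted p = 0.713) and 0.09 in S351A (-0.58 to 0.75, SE 0.30, adjusted p = 0.864), and its sign depended on the scaling. Cdt1, which loads the MCM ring, was at 2.54, 0.704 and 2.60 CPM in cont., at 7.19, 5.74 and 7.32 CPM in Atg7-KO and at 2.30, 8.69 and 2.47 CPM in S351A. Cdt1 rose by 1.69 in Atg7-KO (SE 0.49, adjusted p = 0.0158), a call lost without Atg7-KO replicate 1 (1.65) or 3 (1.64), and was not called in S351A at 1.09 (SE 0.64, adjusted p = 0.225). This second value rested on S351A replicate 2, without which it was 0.19, and leaving out cont. replicate 2 or 3 gave 0.76 or 1.60. Uhrf1, which keeps DNA methylation on new strands, had 1, 2 and 6 counts in cont., 21, 13 and 13 in Atg7-KO and 2, 3 and 5 in S351A. It rose by 3.03 (SE 0.48, adjusted p = 0.000432) and by 2.69 (SE 0.61, adjusted p = 0.00617), respectively. Gins2, part of the active helicase, was at 0.621 ± 0.552 CPM in cont. livers and 6.40 ± 1.70 CPM in Atg7-KO (SD, n = 3), and the loading factor Cdc6 had 1, 0 and 6 counts in cont., 11, 4 and 6 in Atg7-KO and 1 in each S351A library. Gins2 exons overlap those of Gse1.

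Ribonucleotide reductase makes the building blocks of DNA. Of its subunits Rrm2 was called and Rrm1 was not, and the difference between them was not tested. Rrm1, the large subunit, was at 3.81, 8.10 and 7.70 CPM in cont., at 9.98, 5.74 and 8.24 CPM in Atg7-KO and at 9.19, 4.97 and 11.1 CPM in S351A, with overlap of all groups. Rrm2, the small subunit, was at 3.18, 5.63 and 3.76 CPM in cont., at 17.4, 18.3 and 21.5 CPM in Atg7-KO and at 13.8, 8.69 and 14.8 CPM in S351A, with no overlap of the groups. Rrm2 rose by 2.17 in Atg7-KO (SE 0.30, adjusted p = 0.000157) and by 1.56 in S351A (SE 0.35, adjusted p = 0.00604). For Rrm1 the values were 0.23 (95% interval -0.56 to 1.01, SE 0.36, adjusted p = 0.659) and 0.29 (-0.65 to 1.23, SE 0.43, adjusted p = 0.659). Tyms, which makes thymidylate, was at 7.63, 7.39 and 8.33 CPM in cont., at 12.3, 12.2 and 11.4 CPM in Atg7-KO and at 9.19, 11.2 and 14.8 CPM in S351A. Each Cre liver lay above each cont. liver for Tyms, and the log2 fold changes of 0.61 (SE 0.26, adjusted p = 0.0807) and 0.57 (SE 0.30, adjusted p = 0.184) did not pass.

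Tk1, the thymidine kinase that salvages thymidine, was the single gene of the 47 that fell. It was at 37.5, 68.7 and 38.2 CPM in cont., at 7.89, 14.0 and 9.15 CPM in Atg7-KO and at 9.19, 11.2 and 23.4 CPM in S351A. All 6 livers with Cre lay below all cont. livers. With Tk1 in the sum, the 15 replication and nucleotide synthesis genes stood at 113 to 155 CPM in cont. livers, 156 to 183 CPM in Atg7-KO livers and 131 to 149 CPM in S351A, within the range of cont., whereas without it both groups with Cre lay above cont. Tk1 fell by 2.23 on the log2 scale in Atg7-KO (SE 0.34, adjusted p = 0.000375) and fell by 1.72 in S351A (SE 0.39, adjusted p = 0.00604). Per kilobase of exon it was first of the 47 genes in cont., at 9.26 CPM per kilobase, followed by Ccnd1 at 7.63, which did not differ beyond the spread of the livers, and it was at place 26 in Atg7-KO. The Tk1 locus (chr11:117815526-117826092 in mm10, minus strand) shares 83 exonic bases with Afmid, a gene of tryptophan breakdown on the opposite strand. Afmid was at 590, 626 and 271 CPM in cont., at 160, 165 and 148 CPM in Atg7-KO and at 199, 361 and 317 CPM in S351A, and it fell in Atg7-KO by 1.65 on the log2 scale (SE 0.32, adjusted p = 0.00173). The neighbour with more counts moved the same way in Atg7-KO, and its part in the counts of Tk1 was not tested.

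The transcription factor genes both rose. Foxm1, which switches on mitotic genes, was at 1.91, 1.41 and 0.985 CPM in cont., at 20.9, 12.6 and 15.6 CPM in Atg7-KO and at 13.8, 17.4 and 12.3 CPM in S351A. Its log2 fold change was 3.71 in Atg7-KO (SE 0.37, adjusted p = 2.06e-05) and 3.52 in S351A (SE 0.42, adjusted p = 0.000125). E2f1, an activator of replication genes, was at 3.81, 2.11 and 3.31 CPM in cont., at 9.98, 5.38 and 7.78 CPM in Atg7-KO and at 13.8, 8.69 and 7.40 CPM in S351A. E2f1 rose by 1.34 (SE 0.38, adjusted p = 0.0148) and by 1.70 (SE 0.44, adjusted p = 0.0125), and these calls were lost without Atg7-KO replicate 1 (1.08) and S351A replicate 1 (1.37), respectively.

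**Figure D2:**
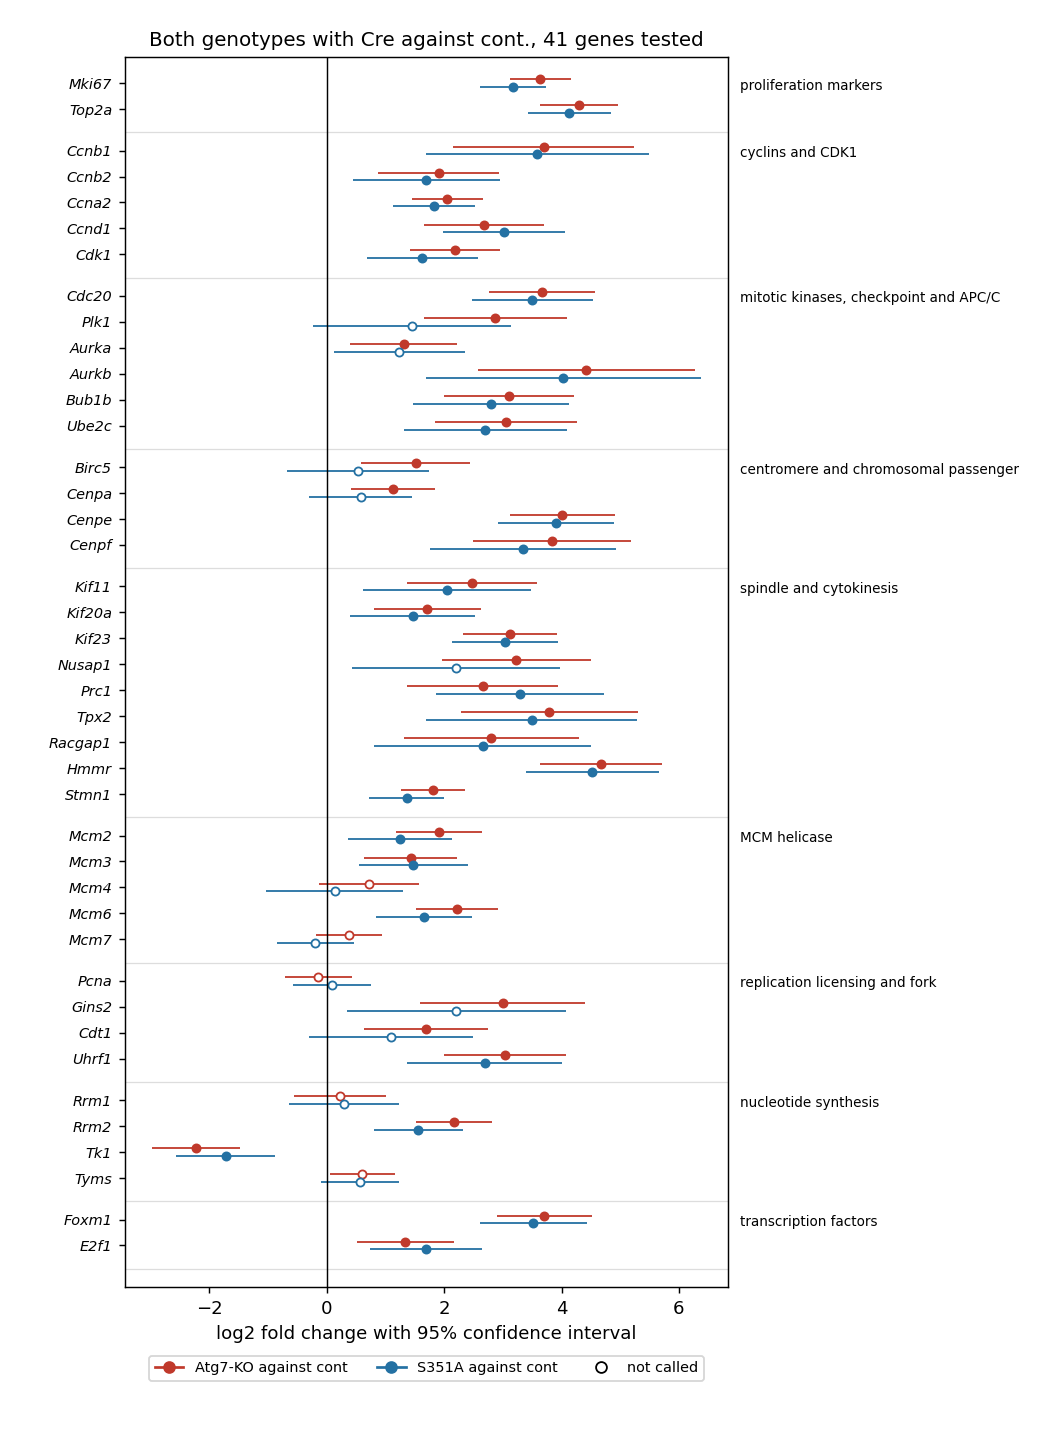
Log2 fold change of the 41 genes tested, grouped by role on the vertical axis, in Atg7-KO (red) and S351A (blue) against cont. on the horizontal axis, with 95% confidence intervals. Filled points passed the threshold, 35 above 0 and 1 below for Atg7-KO and 28 above and 1 below for S351A, and open points lie mainly in the MCM, replication and nucleotide synthesis rows. Both comparisons use the same cont. livers.

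Most of the genes were also higher in S351A than in cont. livers. Of the 41 genes tested 28 rose and 1, Tk1, fell, beside 15.6% and 13% of all genes tested, and the median log2 fold change was 1.83. Without the filter 28 of 47 were called higher and 1 lower, beside 11.3% and 10.7% of all genes. The 12 genes not called were Plk1, Aurka, Birc5, Cenpa, Nusap1, Mcm4, Mcm7, Pcna, Gins2, Cdt1, Rrm1 and Tyms. In 28 of the 47 genes every S351A library lay above every cont. library, as did 14.4% of all genes with 1 count or more. This comparison and that of Atg7-KO share the cont. livers and are not independent of each other.

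The p62 allele was compared within Atg7-deficient livers. Of the 41 genes, none was called between S351A and Atg7-KO by edgeR (0 higher, 0 lower), and DESeq2 also called 0. Over all genes tested, 0.00893% were called by edgeR and 0.348% by DESeq2, so a count of 0 says little about these genes. At an unadjusted p under 0.05 there were 2 of the 41, beside 6.6% of all genes. These were Mki67, at -0.46 on the log2 scale (SE 0.21, unadjusted p = 0.049, adjusted p = 0.755), and Plk1, with -1.41 (SE 0.63, unadjusted p = 0.0431, adjusted p = 0.755). The value of Plk1, on 9 counts in S351A, was -1.16, -1.01 and -2.42 when S351A replicate 1, 2 or 3 was left out in turn. The log2 fold change was below 0 in 34 of the 41 genes, as in 48.8% of all genes tested, and its median was -0.30. The filter bears on this count, since genes such as Plk1, Cdt1, Uhrf1 and Mcm4 passed it in 3 Atg7-KO libraries and 1 S351A library. Others, such as Ccnb1, Prc1 and Racgap1, passed it in more S351A than Atg7-KO libraries. In 10 of the 47 genes every S351A library lay below every Atg7-KO library (Mki67, Cdk1, Plk1, Birc5, Anln, Ect2, Stmn1, Mcm7, Cdc6 and Rrm2), as did 7.08% of all genes with 1 count or more, and no gene of the 47 showed the reverse. These counts run over genes measured in the same livers and are not independent of each other.

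**Figure D3:**
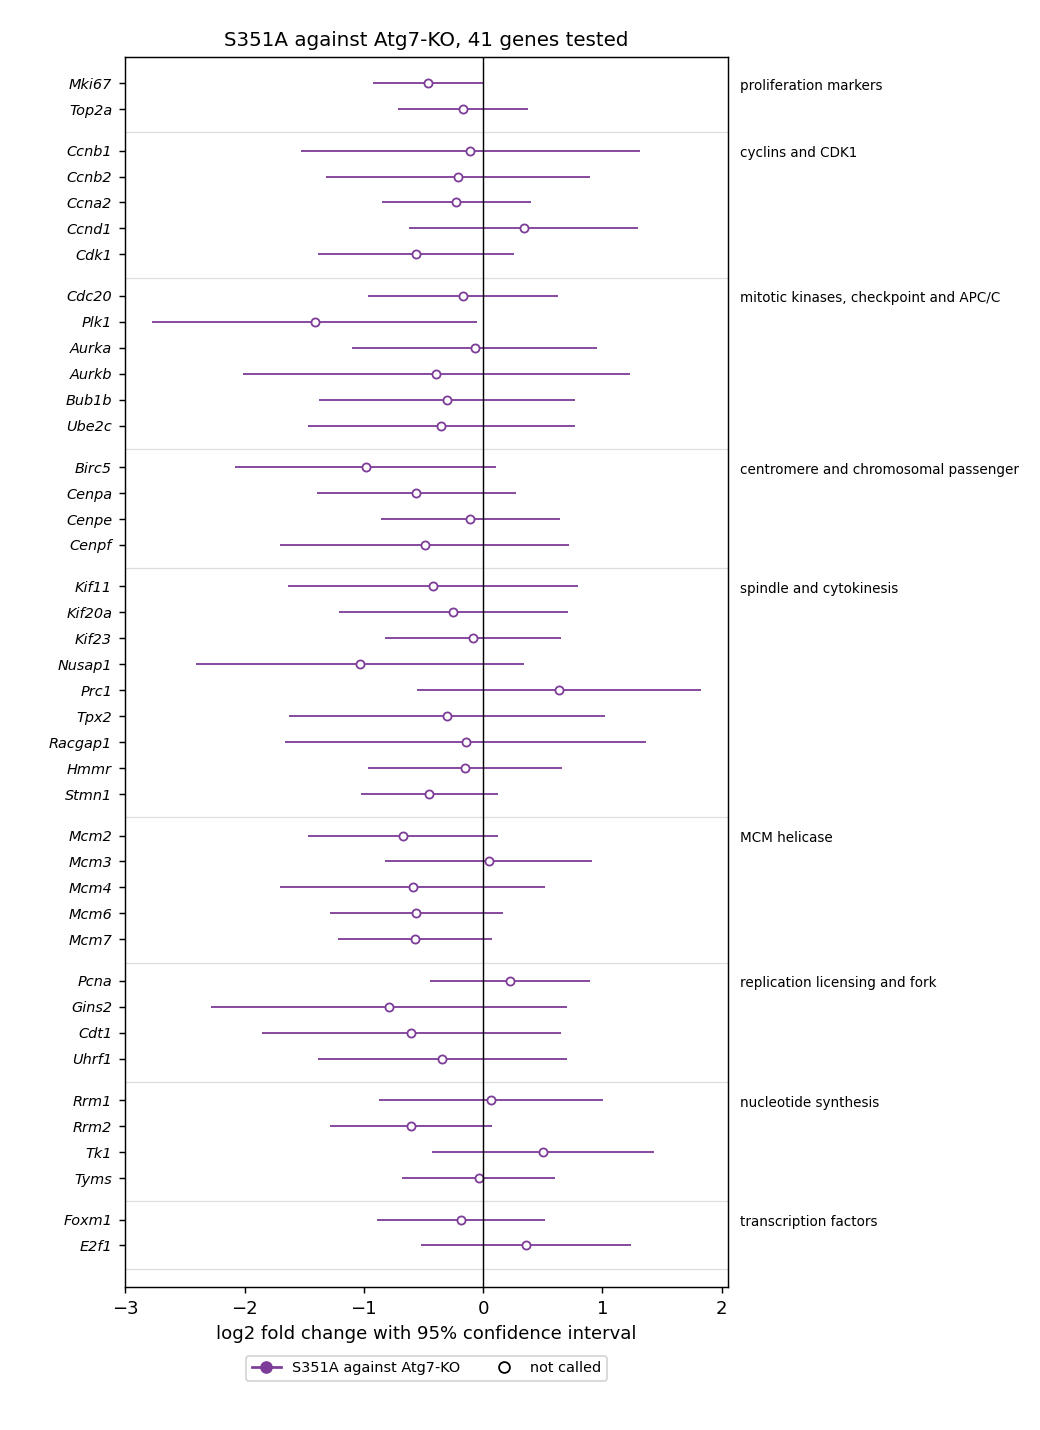
Log2 fold change of S351A against Atg7-KO on the horizontal axis for the 41 genes tested, grouped by role on the vertical axis, with 95% confidence intervals. Open points mark that none was called, 34 points lie below 0, and the intervals of Mki67 and Plk1 are the ones that exclude 0.

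The intervals show what these libraries could resolve. For Top2a the log2 fold change of S351A against Atg7-KO was -0.17 (SE 0.25, 95% interval -0.71 to 0.37), and for Foxm1 it was -0.19 (SE 0.32, -0.89 to 0.52). Ccna2 was at -0.22 (SE 0.29, -0.85 to 0.40), Cdk1 at -0.56 (SE 0.38, -1.38 to 0.26) and Stmn1 at -0.45 (SE 0.26, -1.03 to 0.13). For genes of DNA synthesis the values were -0.67 for Mcm2 (SE 0.37, -1.47 to 0.12), -0.56 for Mcm6 (SE 0.33, -1.29 to 0.17) and -0.61 for Rrm2 (SE 0.31, -1.28 to 0.07). Birc5 was at -0.98 (SE 0.50, -2.08 to 0.11), and Cdt1 at -0.60 (SE 0.58, -1.86 to 0.65). Leaving out S351A replicate 1, 2 or 3 in turn moved Cdt1 to -0.28, -1.49 and -0.32 and Mcm2 to -0.44, -1.22 and -0.48. On the other side of 0 were Ccnd1 at 0.34 (SE 0.44, -0.62 to 1.30), E2f1 at 0.36 (SE 0.40, -0.52 to 1.24), Pcna at 0.23 (SE 0.31, -0.44 to 0.90) and Tk1 at 0.50 (SE 0.43, -0.43 to 1.43). Wider intervals belonged to genes with few counts, such as Ccnb1 at -0.11 (SE 0.65, -1.53 to 1.31) and Aurkb at -0.39 (SE 0.75, -2.01 to 1.23). Uhrf1 was at -0.34 (SE 0.48, -1.38 to 0.70), Rrm1 at 0.06 (SE 0.43, -0.87 to 1.00) and Tyms at -0.04 (SE 0.30, -0.68 to 0.60). Adjusted p-values of all these genes were 0.755 or more, which does not show that the groups were alike.

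Livers within a group were compared as well. Atg7-KO replicate 2 was the lowest of its group for 34 of the 47 genes, with a median level of 1.87 log2 units above the mean of cont., where replicates 1 and 3 were at 2.11 and 2.27. In S351A the medians were 1.21, 1.72 and 1.58, and in cont. they were -0.01, 0.09 and -0.09. For the 22 mitotic genes the medians were 2.63, 2.13 and 2.62 in Atg7-KO and 1.59, 1.95 and 2.02 in S351A. For the 15 replication and nucleotide synthesis genes they were 1.56, 1.06 and 1.54 in Atg7-KO and 0.54, 0.98 and 0.77 in S351A, against -0.03, 0.01 and 0.09 in cont. On each of these medians every library with Cre lay above every cont. library.

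Other genes of the pathway were read from a longer list of 107 genes, of which 77 were tested. In Atg7-KO against cont. 29 rose and 8 fell, beside 19.9% and 18.1% of all genes tested. In S351A against cont. 22 rose and 4 fell, beside 15.6% and 13%, with 16 calls in all without S351A replicate 1. None was called between S351A and Atg7-KO, with 0 at an unadjusted p under 0.05 by edgeR, beside 0.00893% of all genes called and 6.6% at that p. Of the mitotic genes of this list, 16 of 22 rose and 2 fell in Atg7-KO. Of those of origins and forks, 9 of 32 were called higher, a share nearer to that of all genes, and 2 lower. Among these, Mcm10, which starts the fork, was at 113, 58.1 and 74.0 CPM in cont. and at 11.8, 10.1 and 9.61 CPM in Atg7-KO, and it fell by 2.92 on the log2 scale (SE 0.27, adjusted p = 1.04e-05). Lig1, which seals the strand between fragments, was at 9.54, 8.10 and 2.96 CPM in cont. and at 45.5, 36.6 and 40.3 CPM in Atg7-KO, a rise of 2.81 (SE 0.43, adjusted p = 0.000353), or 2.22 without cont. replicate 3. Mcm10 and Tk1 were thus genes of DNA replication that fell while most others rose or did not pass.

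Ckap2l and Tacc3, spindle proteins, rose by 3.70 (SE 0.70, adjusted p = 0.00132) and 2.00 (SE 0.35, adjusted p = 0.000836). Leaving out cont. replicate 1 or 3 gave Ckap2l values of 4.67 or 2.64, respectively, both called. In the RB and E2F family 0 of 12 rose and 3 fell, beside the 18.1% of all genes called lower. Among the 3 were the pocket protein gene Rbl2 at -1.10 (SE 0.30, adjusted p = 0.0122) and the E2F partner gene Tfdp1 at -0.93 (SE 0.25, adjusted p = 0.0117). Both of these calls were lost on total library size, after thinning, and without cont. replicate 3 or Atg7-KO replicate 3, that of Rbl2 also without Atg7-KO replicate 1, with adjusted p-values up to 0.221 for Rbl2 and 0.234 for Tfdp1 over all alternatives.

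Of the G1 genes, Ccnd2 rose in Atg7-KO from 17.3 ± 5.56 to 76.5 ± 26.0 CPM (SD, n = 3), 2.21 on the log2 scale (SE 0.37, adjusted p = 0.000591). The phosphatase gene Cdc25a rose by 1.39 (SE 0.31, adjusted p = 0.0039). Ccnd3 at 0.55 (SE 0.21, adjusted p = 0.059), Ccne2 at 0.76 (SE 0.56, adjusted p = 0.307), Cdk4 at 0.46 (SE 0.26, adjusted p = 0.188) and Cdk2 at -0.88 (SE 0.46, adjusted p = 0.152) were not called, and Cdk6 was not tested. Cdkn1a, which encodes the inhibitor p21, was at 2.54, 52.1 and 5.91 CPM in cont. and at 54.1, 99.1 and 118 CPM in Atg7-KO. The second cont. liver, the one with high Ccnd1, nearly reached the lowest Atg7-KO liver. Cdkn1a rose by 2.16 (SE 0.72, adjusted p = 0.0319), and by 4.14 without cont. replicate 2. This call was lost without cont. replicate 1 or 3, Atg7-KO replicate 2 or 3 or S351A replicate 2, with adjusted p-values up to 0.0975 over all alternatives. Cdkn2c rose by 1.32 (SE 0.45, adjusted p = 0.0341) and Cdkn1b fell by 0.82 (SE 0.30, adjusted p = 0.0434), and both calls were lost without cont. replicate 1 or any 1 of the Atg7-KO livers, that of Cdkn2c also without cont. replicate 3 and that of Cdkn1b also without S351A replicate 1. Cdkn1c at 0.87 (SE 0.47, adjusted p = 0.165) and Cdkn2d at 0.49 (SE 0.41, adjusted p = 0.369) did not pass, and Cdkn2a and Cdkn2b were not tested. Leaving out cont. replicate 2 brought Cdkn1c (1.57), Ccnd3 (0.71) and Cdk2 (-1.20) past the threshold, as did total library size for Cdkn1c (1.40), Ccnd3 (1.08) and Cdk4, thinning for Cdkn1c (1.91) and leaving out Atg7-KO replicate 1 for Ccnd3 (0.70). Ccne2 was not called in any of these fits, and its value was 1.41 or 0.06 when cont. replicate 1 or 3 was left out. Cdk2 was at -0.18 without cont. replicate 3.

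Markers of other liver cell types moved with the same comparison. The summed level of 8 macrophage markers was 210.4 to 325 CPM in cont. livers, 415 to 511 CPM in Atg7-KO livers and 346 to 349 CPM in S351A, and 6 of 8 rose in Atg7-KO, where 19.9% of all genes were called higher and 18.1% lower. For 5 ductular markers it was 47.2 to 83.3, 816 to 1202 and 719 to 1194 CPM, and 5 of 5 rose. Krt19, Epcam and Krt7 of this list passed the filter in no cont. library, and without the filter all 5 were called higher, beside 14.2% of all genes. For 6 stellate cell markers the summed level was 270.9 to 564, 1017 to 1441 and 999.6 to 1415 CPM, and 4 of 6 rose. Ductular, stellate and macrophage markers were thus higher in the same livers as the cell cycle genes, and their part in the result was not tested.

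T and NK cell markers, 7 in number, summed to 4.57 to 11.3 CPM in cont. livers, 13.3 to 23.4 in Atg7-KO and 11.2 to 24.1 in S351A, with Cd3e at or under 3 counts in 2 cont. libraries and in all S351A libraries. Cd8a, of CD8 T cells, was the one gene of this list that was tested, and it rose by 4.22 in Atg7-KO (SE 0.76, adjusted p = 0.00099) and by 4.14 in S351A (SE 0.88, adjusted p = 0.00457). It passed the filter in no cont. library, with 0, 3 and 2 counts there, 40, 14 and 15 in Atg7-KO and 12, 2 and 3 in S351A. Without the filter Cd3e, Nkg7, Cd3d, Cd3g, Cd4 and Klrb1c were called in neither comparison with cont., whereas Cd8a was called higher in both. The 4 B cell markers summed to 5.02 to 9.51, 9.28 to 15.1 and 8.04 to 13.7 CPM. Neutrophil markers were near the floor, at 1.23 to 8.69 CPM over all livers for 4 genes, with Mpo and Elane at 0 in every cont. and Atg7-KO library. The summed level of 4 erythroid markers, which can come from blood or from red cell precursors, was lower in livers with Cre. It was 66.9 to 209 CPM in cont. livers, 10.1 to 16.7 CPM in Atg7-KO livers and 19.9 to 35.6 CPM in S351A, and Alas2 made up most of it. Slc4a1, near the floor, went the other way in S351A, with 5 counts there and 3 in cont. over all libraries of the group. The sums of 6 endothelial markers overlapped, at 102 to 193, 133 to 159 and 112 to 152 CPM, but single genes went opposite ways. Lyve1 rose by 2.03 in Atg7-KO (SE 0.27, adjusted p = 0.000131) and by 1.33 in S351A (SE 0.29, adjusted p = 0.00528), whereas in Atg7-KO Stab2 fell by 1.03 (SE 0.28, adjusted p = 0.0112) and Clec4g by 1.11 (SE 0.32, adjusted p = 0.0159). Hepatocyte markers summed to 43425 to 98635 CPM in cont. livers and 29864 to 37164 CPM in Atg7-KO. Of these markers 4 of 5 fell, beside 18.1% of all genes called lower. Which cells carried the transcripts of the 47 genes cannot be read from these libraries.

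**Figure D4:**
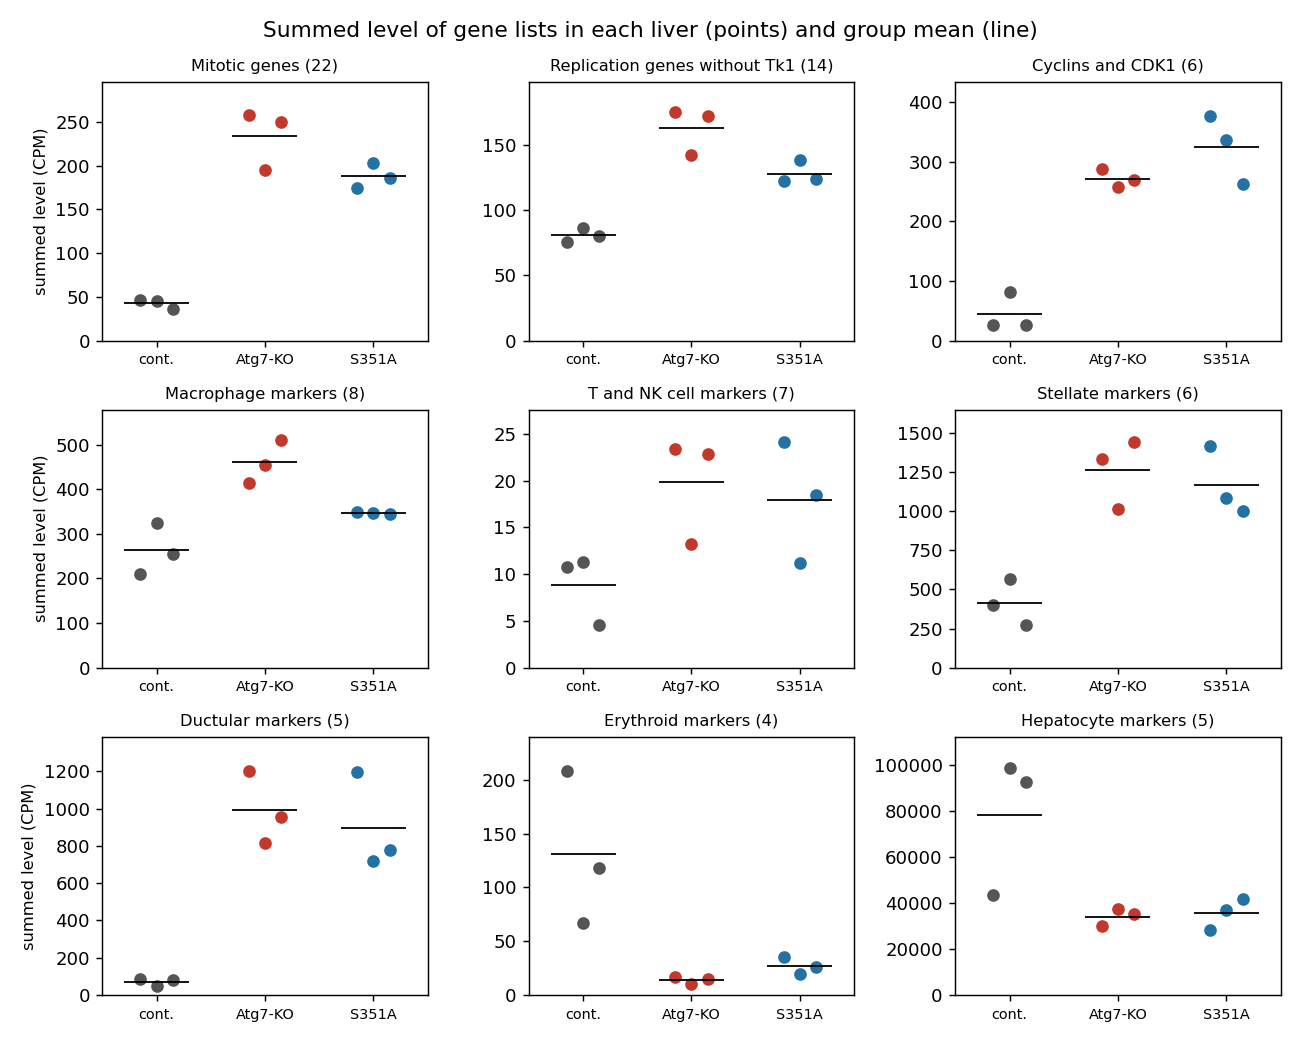
Summed level in CPM on the vertical axis of 3 groups of the cell cycle genes (top row) and of markers of 6 liver cell types, with points for the 3 livers of each group and a line for the mean. Sums of mitotic genes, replication genes with Tk1 left out, cyclins and the ductular and stellate markers are higher in both groups with Cre than in cont. The erythroid sum, most of it Alas2, is lower.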

How the data were processed

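For each liver, the authors sequenced poly(A) RNA as single-end reads, which were trimmed with Trim Galore, mapped to mm10 with STAR and quantified with RSEM, per the study's methods and processing notes. Tool versions, annotation and strand setting were not given in the sources used here. The values deposited by the authors are unscaled expected counts per gene symbol, and were rounded here to whole numbers. Columns were matched to groups by their names. Positions and exon lengths were taken from GENCODE M21, and promoters from RefSeq.

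Genes were filtered with filterByExpr (minimum count 10, minimum total 15), which kept 11199 of 24411 genes, scaled by TMM and fitted with a term per group over all 9 libraries in edgeR 4.0.16 under R 4.3.3. Each contrast used the quasi-likelihood F test with Benjamini-Hochberg adjustment over all genes tested, two-sided, and a gene was called at an adjusted p under 0.05 and a fold change above 1.5. SE values follow from the log2 fold change and its F statistic. The scripts were tested on simulated data. DESeq2 1.42.0, other scalings and filters, thinning, a replicate block, sex read from the counts and leaving out each library were tried as alternatives. The filter on the mean of all libraries was chosen after seeing the data.

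The 47 genes, the longer list and the cell type markers were chosen with earlier results of these data known, and no list was tested as a set. Full statistics were given for a fixed list of members, for members called against the majority, for members with an unadjusted p under 0.05 in S351A against Atg7-KO, for tested inhibitors and G1 genes, and for the 2 called genes with the largest change in each other part of the longer list with a mean of at least 10 CPM. Other members were described by their levels. With 3 livers a group, replicate numbers named samples and did not pair them.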

Additional observations from a re-analysis of the deposited data

How the results depend on the processing

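In Atg7-KO against cont., between 30 and 39 members were called when each library was left out in turn, and 15 of 20 tested after thinning to 713835 counts, against 36 of 41. The longer list gave 10 calls after thinning and 26 to 42 with a library left out, against 37. The median log2 fold change of the members was 3.07 on total library size, which moved the median of all genes from -0.03 to 0.52, 2.24 without the filter, 2.27 in the 6 compared libraries alone and 2.23 to 2.44 with a library left out. A filter on the mean of all libraries at 2 CPM called 39 higher and 1 lower of 46, beside 19% and 17.2% of all genes. In S351A against cont., 16 members were called in the 6 compared libraries alone, 13 of 20 tested after thinning and 23 to 28 with a library left out, against 29. Over all genes tested after thinning, 12.6% were called higher and 11.3% lower in this comparison. Shares of all genes were not counted for the 6 libraries alone, the replicate block or fits with a library left out. The longer list gave 12, 10 and 16 to 31, against 26, with 16 when S351A replicate 1 was left out. The median was 2.35 on total library size and 1.75 to 1.95 with a library left out. Fewer genes were tested after thinning and in the 6 libraries, which lowers these counts. In S351A against Atg7-KO every alternative and leave-one-out fit called 0 members, and the median was -0.41 to -0.26 with a library left out.

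Pcna in Atg7-KO against cont. turned from -0.14 to 0.43 on total library size and 0.28 after thinning, and lay between -0.28 and 0.15 with a library left out. In S351A against cont. it was -0.025 without the filter and -0.18 to 0.37 with a library left out. Signs in S351A against Atg7-KO also turned with a library left out, for which the ranges were -0.54 to 0.35 for Ccnb1, -1.98 to 0.18 for Aurkb, -0.027 to 0.44 for Pcna, -0.18 to 0.33 for Rrm1, -0.245 to 0.11 for Tyms, -0.35 to 0.039 for Foxm1 and -0.018 to 0.78 for Tk1. None of these was called, and the cause was not tested. Tyms passed only on total library size (1.17 and 1.08 against cont.). The call of Mcm2 in S351A against cont. was also lost without the filter, in the 6 libraries alone, under the block, with sex as a covariate, after thinning, and without cont. replicate 2 or 3 or any 1 of the Atg7-KO livers (adjusted p from 0.00672 to 0.296 over all alternatives).

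The replicate block was fitted because the groups share replicate numbers. Of the 9 pairs with the same number, 8 deviated together (correlation 0.07 to 0.31) and 1 did not (-0.04, cont. and Atg7-KO replicate 3). Since 4 of the 9 were under 0.1, the numbers were not taken as pairs, although those of cont. with S351A were at 0.24, 0.18 and 0.16. Sex read from the counts was male in all replicates 1 and female in all replicates 2, whereas cont. replicate 3 was male and the other replicates 3 female. Sex was thus unbalanced between cont. and the groups with Cre. With the block, 36 members were called in Atg7-KO against cont., 27 in S351A against cont. and 0 in S351A against Atg7-KO. Depth limits cont. replicates 1 and 2, where 22 and 16 of the 47 members were at or under 3 counts, and S351A, with 10 to 15 in a library.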
